A study of Mus musculus with 8 samples.

Results

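IGLV2 and IGLV3 are the less used lambda light-chain V genes of the mouse. Their cells were taken as the receptor contigs labelled IGLV2 or IGLV3 in barcodes that held exactly 1 heavy-chain and 1 light-chain contig, termed paired cells. This gave 540 of 40603 paired cells, 321 with IGLV2 (175 WT and 146 KO) and 219 with IGLV3 (188 WT and 31 KO). The neighbouring gene IGLV1 was carried by 1257 paired cells and a kappa chain by 38806.

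The study asked how Deltex-1 (Dtx1), a ubiquitin ligase linked to Notch signalling, bears on germinal-centre B cells, and compared splenic cells of Dtx1+/+ mice (WT) with those of Dtx1-/- mice (KO). Cells were taken on day 10 after an immunization, captured on beads with peanut agglutinin, a lectin that binds germinal-centre B cells, and sorted, and their receptors were sequenced from droplets in 4 libraries per genotype. The labels name no immunogen, age, number of mice or sort gates, and the Dtx1 genotype could not be checked because receptor contigs hold no Dtx1 transcript. The libraries held 4585 to 5712 paired cells and 754954 to 1155339 unique molecular identifiers (UMIs, tags that mark single RNA molecules). Of the clones with at least 2 cells, 88.4% in WT and 87.7% in KO lay in at least 2 libraries of their genotype. Libraries of a genotype therefore drew on common clones, and every SD and p below describes the spread between such libraries and compares 2 pools of cells, not sets of mice. Between 28 and 54 barcodes were listed in both libraries of a pair, and none of those barcodes carried the same receptor in both.

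A light chain is assembled in the bone marrow by joining a V segment to a J segment next to a constant gene, and most mouse B cells use kappa. The mouse lambda locus is small, with few V segments lying in clusters, and a V segment joins to J segments downstream of it. In the germinal centre, activated B cells mutate the V segments of both chains and can exchange the IgM constant region for another class, and cells with better binding receptors are selected.

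All 9 lambda segment names of these and the IGLV1 cells, and all 60 heavy V names of the IGLV2 and IGLV3 cells, were found in RefSeq's gene list for GRCm38.p6, the assembly behind mm10. On chromosome 16 that table places Iglv2 at 19260403 to 19260844, Iglv3 at 19241208 to 19241679, Iglj2 at 19200198 to 19200235 and Iglc2 at 19198536 to 19198852. Iglv1 (19085017 to 19085460) follows, and then Iglj3, Iglc3, Iglj1 and Iglc1, the last at 19061752 to 19062071. The distance from Iglv2 to Iglj2 is 60.2 kb and from Iglv3 to Iglj2 41.0 kb, whereas Iglv2 lies 193 kb from Iglj3 and 197 kb from Iglj1. The unmutated V segments, taken as the sequence (framework 1 through framework 3) that most clones of a gene carried, are shown because the gene calls and the mutation counts rest on them. Capitals mark the bases at which IGLV1 and IGLV2 differ.
IGLV1: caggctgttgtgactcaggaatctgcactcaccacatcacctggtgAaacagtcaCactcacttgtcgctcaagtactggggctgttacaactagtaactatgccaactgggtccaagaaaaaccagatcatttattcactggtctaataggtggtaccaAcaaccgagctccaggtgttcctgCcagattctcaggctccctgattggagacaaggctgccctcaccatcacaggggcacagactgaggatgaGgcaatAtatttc
IGLV2: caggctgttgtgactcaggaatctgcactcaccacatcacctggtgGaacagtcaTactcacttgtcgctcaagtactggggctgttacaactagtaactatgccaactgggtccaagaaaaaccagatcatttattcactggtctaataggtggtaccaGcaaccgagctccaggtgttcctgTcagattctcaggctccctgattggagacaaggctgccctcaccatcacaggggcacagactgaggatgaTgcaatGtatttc
IGLV3: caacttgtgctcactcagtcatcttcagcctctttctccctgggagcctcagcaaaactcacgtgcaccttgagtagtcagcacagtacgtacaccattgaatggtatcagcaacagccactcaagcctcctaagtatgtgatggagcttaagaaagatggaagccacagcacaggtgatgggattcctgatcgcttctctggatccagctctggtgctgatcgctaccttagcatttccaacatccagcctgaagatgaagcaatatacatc

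IGLV1 and IGLV2 shared 97.8% of 267 bases and differed at 6 positions, A47G, C56T, A161G, C185T, G255T and A261G, with the IGLV1 base first and positions counted from 1 at the first base of framework 1. IGLV2 and IGLV3 shared 51.3% of 273 aligned columns. IGLV2 is thus close to IGLV1 in sequence and far from IGLV3, its neighbour in the locus. Every one of the 321 IGLV2 contigs was nearer to the IGLV2 than to the IGLV1 sequence, with at most 3 differences from the former and at least 6 from the latter. The unmutated sequence was the consensus of 185 of 193 IGLV2 clones and of 63 of 70 IGLV3 clones. A clone here is a set of cells of 1 genotype with the same heavy V, heavy J, light V and light J genes and heavy CDR3 length, joined at a heavy CDR3 nucleotide identity of at least 0.85. The joining was by single linkage, so junctions below that identity can share a clone where others link them. The CDR3 is the junction of the joined segments and the most variable loop of a chain.

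The lambda junctions were nearly uniform within each gene. Those carried by most clones are printed next, and capitals mark where a sequence departs from the most common of its gene.
IGLV2 with IGLJ2: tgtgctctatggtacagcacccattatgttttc
IGLV2 with IGLJ1: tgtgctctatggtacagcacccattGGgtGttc
IGLV2 with IGLJ2, variant: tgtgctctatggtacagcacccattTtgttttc
IGLV3 with IGLJ2: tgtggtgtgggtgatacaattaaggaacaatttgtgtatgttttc
IGLV3 with IGLJ2, variant: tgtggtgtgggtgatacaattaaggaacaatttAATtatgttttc

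The first IGLV2 junction was carried by 154 of 193 clones (79.8%) and 249 cells, the second, with A26G, T27G and T30G, by 17 clones and the third, which differs by A26T, by 8 clones. Positions are counted from 1 at the first base of the junction. All 193 IGLV2 clones had a junction of 33 bases, and 9 sequences were found among them. The first IGLV3 junction was carried by 59 of 70 clones (84.3%) and 208 cells, and the variant with G34A, T35A and G36T by 2 clones. The IGLV3 junction was longer, 45 bases in 67 of 70 clones, with 11 sequences in all, so both genes gave few lambda CDR3 sequences for many heavy chains.

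The J gene also differed between the genes. All 219 IGLV3 cells used IGLJ2, and IGLC2 was listed as the constant gene of 187 WT and 31 KO cells, with none listed for 1 WT cell. Among IGLV2 cells 286 used IGLJ2, with IGLC2 in 152 WT and 133 KO cells and IGLC3 in 1 KO cell, 28 used IGLJ1 with IGLC1 and 7 used IGLJ3 with IGLC3. The joins to IGLJ1 came from 22 clones, 11 in each genotype, and those to IGLJ3 from 4 clones, all WT. The IGLJ2 share of IGLV2 cells was 84.1, 92.9, 83.7 and 87.0% in the WT libraries and 88.9, 95, 93.9 and 89.2% in the KO libraries. In every library it lay below the 100% of IGLV3, with a mean difference of -10.7 points and an exact two-sided sign-flip permutation p of 0.00781, the smallest that 8 libraries allow, and 0.0547 after adjustment over the 7 measures compared between the genes. A single measure could not fall under 0.05 after this adjustment, so the adjusted value does not decide. The KO and WT shares of IGLV2 cells overlapped (exact permutation p = 0.114). IGLV1, by comparison, was joined to IGLJ1 in 1097 cells and to IGLJ3 in 160, and 0 of its 1257 cells used IGLJ2.

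Both genes were used by fewer cells in KO than in WT, and IGLV3 showed the larger difference. IGLV2 was carried by 0.909, 0.902, 0.930 and 1.00% of paired cells in the WT libraries and by 0.65, 0.70, 0.590 and 0.733% in the KO libraries, with means of 0.936% ± 0.0465 and 0.668% ± 0.0627 (SD, n = 4 each). IGLV3 was carried by 1.01, 1.18, 0.995 and 0.83% in the WT libraries and by 0.198, 0.105, 0.125 and 0.139% in the KO libraries, with means of 1.00% ± 0.144 and 0.142% ± 0.0402 (SD, n = 4 each). The groups did not overlap for either gene. In a KO library the IGLV3 share rested on 6 to 11 cells, against 38 to 55 in a WT library. In the edgeR quasi-likelihood fit over all light V genes, IGLV2 fell by 0.49 on the log2 scale (SE 0.137, adjusted p = 0.00405) and IGLV3 fell by 2.81 (SE 0.211, adjusted p = 5.29e-09).

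**Figure D1:**
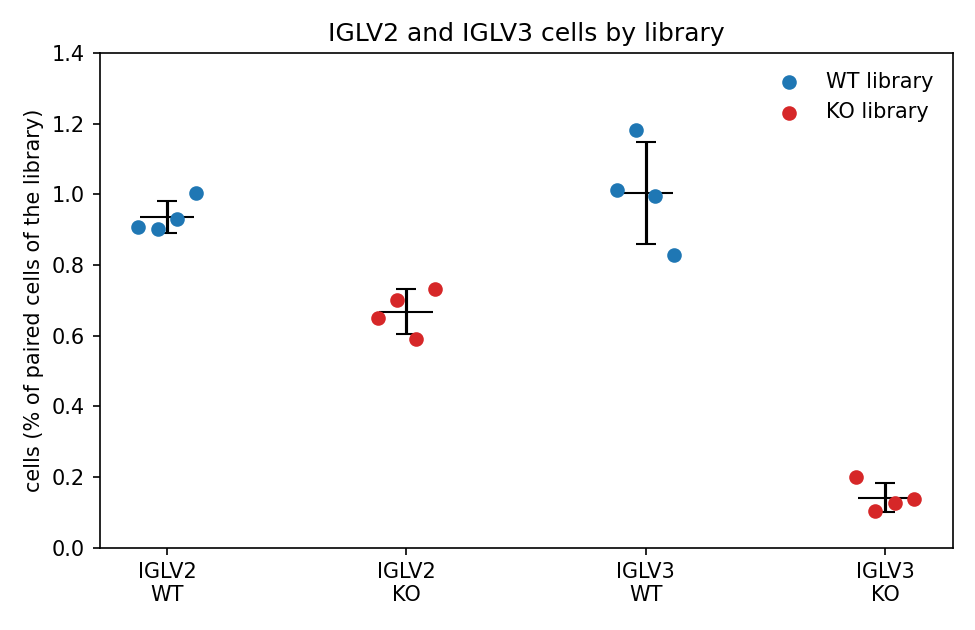
Cells with IGLV2 or IGLV3 as a percent of the paired cells of a library, for the 4 WT and 4 KO libraries; points are libraries, and bars are the mean and SD. All KO points lie below all WT points of the same gene, between 0.105 and 0.198% for IGLV3 in KO against 0.83 to 1.18% in WT.

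That fit called 52 of 72 light V genes (72.2%) at an adjusted p under 0.05, and 20 of them (27.8%) were lower in KO, IGLV1, IGLV2 and IGLV3 among these. A call was thus common, and what set IGLV3 apart was its size, the lowest log2 value of the 72, with IGKV3-4 next at -2.21 and the median of all at 0.18. With TMM scaling that median moved to -0.06, the 32 genes higher and 20 lower became 25 and 25, and IGLV2 and IGLV3 stood at -0.73 and -3.05. IGLV1 fell by 0.85 on the log2 scale (adjusted p = 5.29e-09), from 4.07% ± 0.204 in WT to 2.26% ± 0.0487 in KO (SD, n = 4 each). The make-up of the lambda cells therefore differed, with IGLV3 at 16.7% of them in WT and 4.60% in KO, and IGLV2 at 15.6 and 21.8%.

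Set against each other, the genes were close to equal in WT and unequal in KO. IGLV3 made up 52.7, 56.7, 51.7 and 45.2% of the IGLV2 and IGLV3 cells in the WT libraries and 23.4, 13.0, 17.5 and 15.9% in the KO libraries. The difference was -34.1 points (exact permutation p = 0.0286, two-sided), the smallest that 4 against 4 libraries allow. It depended on the sizes of clones. With each clone counted once per library the difference was -10.8 points (exact p = 0.0571), and with each clone of a genotype counted once it was -5.45 points (exact p = 0.171).

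IGLV3 cells of the WT pool came from few clones, and IGLV2 cells from many. The 175 WT cells with IGLV2 formed 111 clones, 97 of them of 1 cell, and the largest held 8.00% of the cells. The 146 KO cells with IGLV2 formed 82 clones, 63 of 1 cell, and the largest held 13.0%. The 188 WT cells with IGLV3 formed 45 clones, 37 of 1 cell, but the largest held 39.9% of the cells and the 5 largest 74.5%. That largest clone joined 2 main heavy junctions, described below. The 31 KO cells with IGLV3 formed 25 clones, 21 of 1 cell, and the largest held 4 cells.

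**Figure D2:**
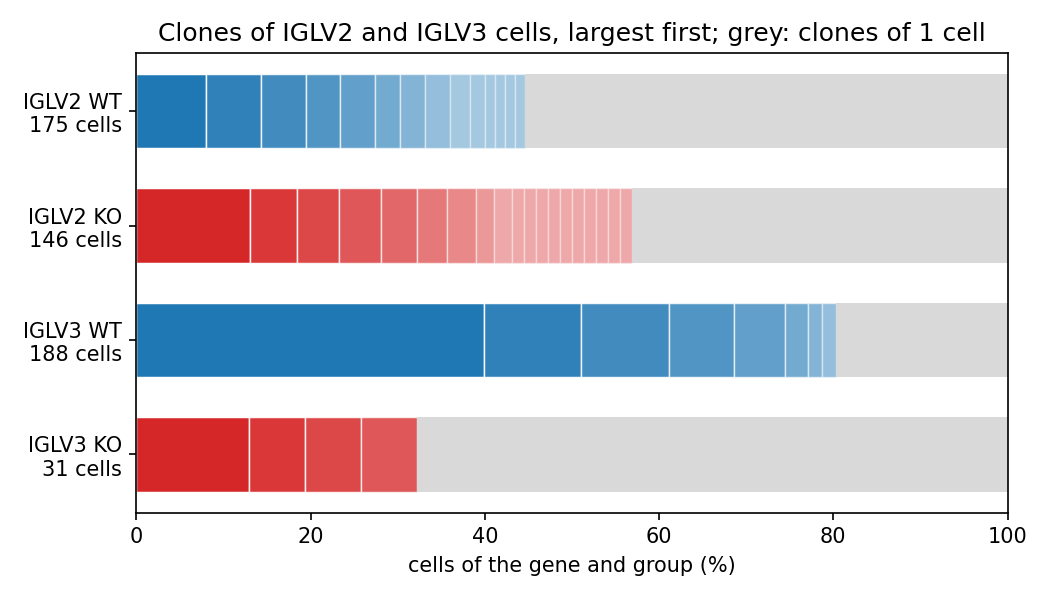
Share of the cells of a gene and group held by each clone, from the largest at the left; grey is the sum of clones of 1 cell. The WT cells with IGLV3 stand apart, with 39.9% of cells in the largest clone, which joins 2 main heavy junctions, and 80.3% in clones of at least 2 cells.

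At a common number of 31 cells, 12.3 clones would be found among WT cells with IGLV3, against 25 among KO cells with IGLV3 and 25.5 and 23.9 among WT and KO cells with IGLV2. All 8 WT clones with IGLV3 that held at least 2 cells lay in at least 2 libraries, and 5 of them in all 4. Counted as clones, IGLV3 made up 0.593% of the WT clones (exact 95% interval 0.433 to 0.792%) and 0.242% of the KO clones (0.157 to 0.357%). IGLV2 made up 1.46% of the WT clones (1.20 to 1.76%) and 0.794% of the KO clones (0.632 to 0.985%). These intervals cover counting error only. With each clone of a genotype counted once, the edgeR fit still called both genes, at -0.88 for IGLV2 (adjusted p = 0.00114) and -1.27 for IGLV3 (adjusted p = 0.00156) on the log2 scale, so the IGLV3 difference in cells was larger than that in clones.

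The largest IGLV3 clone paired IGHV1-55 and IGHJ3 and held 17, 27, 19 and 12 cells of the WT libraries, 75 in all. It was made of 2 heavy junctions that differ at 7 bases, with 42 and 30 cells, plus 3 junctions of 1 cell. In 74 of the 75 cells the heavy V segment carried no mutation, and all 75 were IgM. An identity of at least 0.95, or identical junctions, split it, with 42 cells in the largest clone and 49 or 50 clones in place of 45. The heavy junctions of the 5 largest WT clones with IGLV3 are shown next because these clones hold most of the cells. Capitals in the second line mark bases that differ from the first.
IGHV1-55 IGHJ3, 42 cells: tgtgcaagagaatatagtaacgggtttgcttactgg
IGHV1-55 IGHJ3, 30 cells: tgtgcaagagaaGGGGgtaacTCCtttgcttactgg
IGHV1-9 IGHJ2, 21 cells: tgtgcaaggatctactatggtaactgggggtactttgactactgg
IGHV5-17 IGHJ2, 19 cells: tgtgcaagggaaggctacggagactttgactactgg
IGHV1-64 IGHJ3, 14 cells: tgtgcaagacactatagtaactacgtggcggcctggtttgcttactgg
IGHV1-55 IGHJ2, 11 cells: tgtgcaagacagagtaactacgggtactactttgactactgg

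Both main junctions of the IGHV1-55 and IGHJ3 clone were found in all 4 WT libraries, with 10, 15, 11 and 6 cells for the first and 6, 10, 8 and 6 for the second. Their lambda junction was the same, the most common of IGLV3. The other 4 clones each had 1 heavy junction and no heavy or lambda V mutation, and all lay in 4 libraries. Without the IGHV1-55 and IGHJ3 clone, IGLV3 remained at 0.603% ± 0.0408 of paired cells in WT (SD, n = 4), all libraries above the highest KO value of 0.198%, and the edgeR log2 value was -2.08 (adjusted p = 1.14e-07), no longer the lowest of the 72. That clone was chosen for its size after the values were seen.

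The largest IGLV2 clones were smaller, and several also joined more than 1 junction. Their heavy junctions are printed next, since they show which clones were recurrent and which were mutated. Capitals mark bases that differ from the line directly above in the same clone.
WT IGHV1-66 IGHJ4, 10 cells: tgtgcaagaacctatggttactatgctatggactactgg
WT IGHV1-66 IGHJ4, 4 cells: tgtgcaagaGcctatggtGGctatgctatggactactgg
WT IGHV1-78 IGHJ1, 4 cells: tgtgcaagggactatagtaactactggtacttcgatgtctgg
WT IGHV1-78 IGHJ1, 3 cells: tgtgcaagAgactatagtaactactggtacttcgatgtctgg
WT IGHV14-3 IGHJ3, 3 cells: tgtactgggggttttgcttactgg
WT IGHV14-3 IGHJ3, 3 cells: tgtGctgCgggttttgcttactgg
KO IGHV1-4 IGHJ4, 8 cells: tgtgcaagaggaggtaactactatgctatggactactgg
KO IGHV1-4 IGHJ4, 4 cells: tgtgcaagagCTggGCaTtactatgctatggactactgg
KO IGHV1-66 IGHJ1, 8 cells: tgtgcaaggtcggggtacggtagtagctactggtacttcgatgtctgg

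The WT IGHV1-66 clone held 14 cells in these 2 junctions and the WT IGHV1-78 clone 11 cells in 4 junctions, all without a heavy V mutation. The WT IGHV14-3 clone was of another kind. Its 9 cells had 5 junctions, every cell carried heavy V mutations (4.78 on average, at most 8), 3 cells were IgG1, and some carried lambda V mutations. The KO IGHV1-4 clone held 19 cells in 6 junctions, 17 of them without a heavy V mutation, and its largest set of identical junctions had 8 cells. The other WT clones among the 5 largest were 2 IGHV2-5 and IGHJ4 clones of 7 cells each, and the other KO clones paired IGHV1-78 (7 cells), IGHV9-3 (7 cells) and IGHV1-81 (6 cells), all unmutated.

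IGLV2 and IGLV3 cells paired with different heavy V genes. IGHV1-55 was carried by 0 of 321 IGLV2 cells (exact 95% interval 0 to 1.14%) and by 96 WT and 7 KO cells of the 219 with IGLV3 (47.0%). The IGLV3 share was 50.3 times a nominal limit of 3 cells over all IGLV2 cells (0.935%). In clones it was 0 of 193 with IGLV2 (0 to 1.89%) against 13 of 70 with IGLV3 (18.6%, exact 95% interval 10.3 to 29.7%). That was 11.9 times a limit of 3 clones (1.55%). IGHV1-66 went the other way, with 42 of 321 IGLV2 cells (13.1%) and 0 of 219 IGLV3 cells (0 to 1.67%). That was 9.55 times a limit of 3 cells (1.37%). In clones it was 16 of 193 (8.29%, 4.81 to 13.1%) against 0 of 70 (0 to 5.13%), so the exact intervals overlapped. The share was 1.93 times a limit of 3 clones (4.29%). These ratios are not lower bounds, and intervals over cells treat the cells of a clone as independent.

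The edgeR fit of heavy V partners, with the library as a block, tested 15 genes with at least 10 cells of the 2 lambda genes together and called 7 (46.7%). Higher with IGLV2 were IGHV1-66 (adjusted p = 1.45e-07), IGHV1-78 (adjusted p = 0.00110), IGHV9-3 (adjusted p = 0.00692) and IGHV14-3 (adjusted p = 0.0270). Higher with IGLV3 were IGHV1-55 (adjusted p = 2.42e-29), IGHV1-9 (adjusted p = 4.05e-06) and IGHV1-64 (adjusted p = 0.0376). IGHV1-78 was found in 25 IGLV2 and 0 IGLV3 cells, IGHV9-3 in 28 and 3, IGHV14-3 in 17 and 1, IGHV1-9 in 1 and 30, and IGHV1-64 in 2 and 16. All 7 called genes reached the limit of 10 cells through the lambda gene with which they were higher. An expanded clone can be enough for that, so the called share describes only the genes this filter kept. Cells of a clone are not independent partners. With each clone of a genotype counted once 6 genes could be tested, and IGHV1-55 was called (adjusted p = 0.0252) while IGHV1-66 (0.119) and IGHV9-3 (0.682) were not. IGHV1-55 passed the limit, here 10 clones, only through IGLV3, with 13 clones against 0 for IGLV2. Its call is therefore limited in the same way. With each clone counted once per library, IGHV9-3 (log2 1.59, adjusted p = 0.151) and IGHV14-3 (log2 1.92, adjusted p = 0.168) were no longer called. IGHV14-3 also lost its call without the largest IGLV3 clone (adjusted p = 0.0826). Within WT libraries 9 of 9 genes kept by the same filter were called, each reaching 10 cells through the lambda gene with which it was higher. In that fit IGHV9-3 stood at 3.76 on the log2 scale (adjusted p = 0.000228), whereas within KO libraries it stood at 0.22 (adjusted p = 0.939). The difference between these was not tested. The IGHV1-64 call was lost without any 1 of the 4 WT libraries (adjusted p 0.0787 to 0.129), that of IGHV14-3 without WT library 2, 3 or 4 (0.0712 to 0.112), and that of IGHV9-3 without WT library 2 (0.0534), where 4 genes in all were called.

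**Figure D3:**
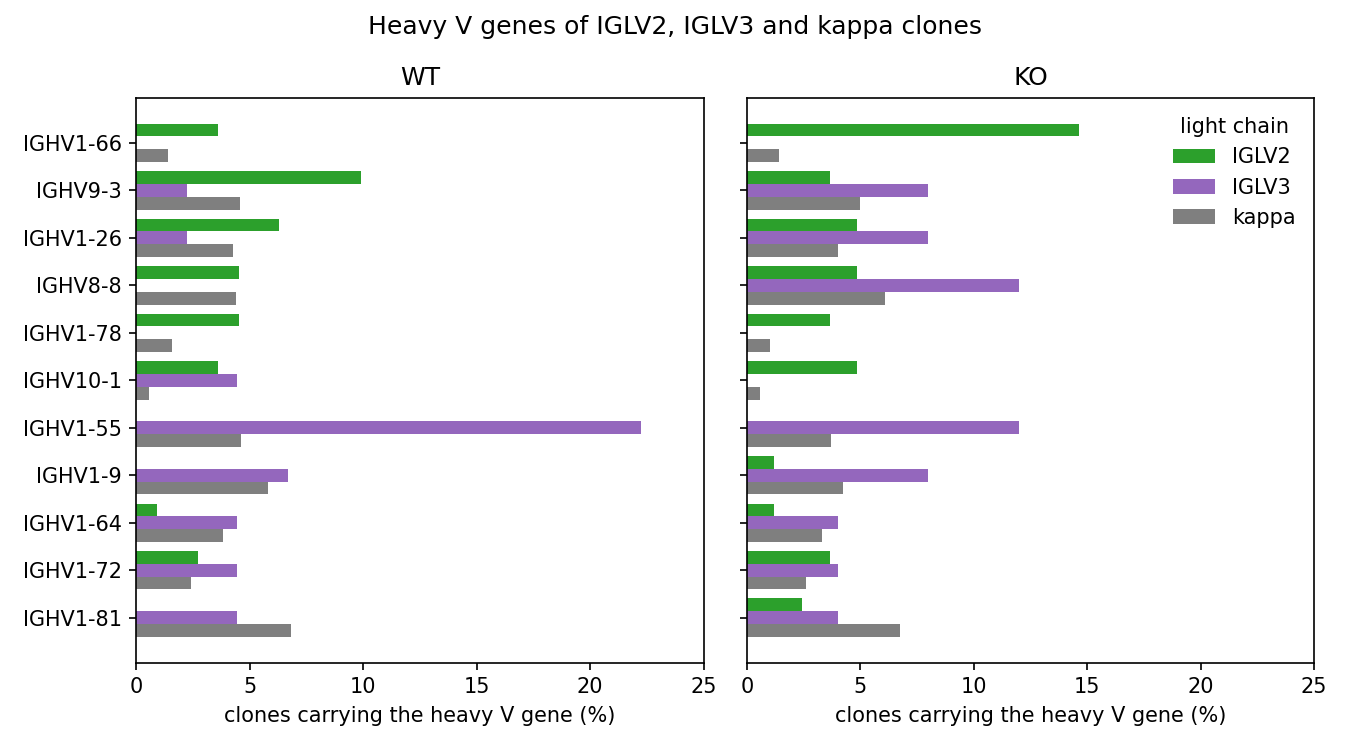
Share of clones that carry each of the heavy V genes most common with IGLV2 or IGLV3 (ties in clones broken by cells, then name), for IGLV2, IGLV3 and kappa clones, in WT at the left and KO at the right. IGHV1-55 reaches 22.2% of WT and 12% of KO clones with IGLV3 and is absent from IGLV2 clones, and IGHV1-66 reaches 14.6% of KO clones with IGLV2 and is absent from IGLV3 clones.

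The IGHV1-55 gene, on chromosome 12 at 115208137 to 115208527, was found with IGLV3 in 26, 33, 21 and 16 cells of the WT libraries and in 2, 0, 4 and 1 cells of the KO libraries. Every WT library thus held more such cells than any KO library, but also more IGLV3 cells in all (38 to 55 against 6 to 11). Of the WT cells, 75 belonged to the largest clone. Among kappa clones it made up 4.63% in WT and 3.71% in KO, against 22.2% and 12% of IGLV3 clones, a comparison given as a description. Its 13 clones included 4 with IGHJ3, and all 4 had a heavy CDR3 of 12 codons. Among kappa clones with IGHV1-55 and IGHJ3, 30.6% in WT and 19.3% in KO had 12 codons. The KO clone of that kind held 4 cells, and its junction is shown against that of the 42 WT cells above, with capitals for the bases that differ.
KO IGHV1-55 IGHJ3, 4 cells: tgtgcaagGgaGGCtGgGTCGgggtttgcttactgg

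It differed at 9 bases and had no heavy or lambda V mutation. The remaining 2 clones of that kind, both WT, held 3 cells and 1 cell, differed at 8 and 9 bases and carried 1 and 2 heavy V mutations per cell. Under identical junctions as the clone rule, IGHV1-55 was carried by 15 of 50 WT and 3 of 25 KO clones with IGLV3.

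IGHV1-66, on chromosome 12 at 115593110 to 115593403, was found with IGLV2 in 4, 3, 5 and 5 cells of the WT libraries and in 10, 5, 4 and 6 cells of the KO libraries. These 17 WT cells formed 4 clones and the 25 KO cells 12 clones. IGHV1-66 made up 3.60% of WT and 14.6% of KO clones with IGLV2, against 1.42 and 1.4% of kappa clones. IGHV9-3 ran the other way in IGLV2 clones, with 11 clones (9.91%) in WT and 3 (3.66%) in KO. The other heavy V genes most common with IGLV2 were IGHV1-26 with 11 clones, IGHV8-8 with 9, and IGHV1-78 and IGHV10-1 with 8 each. IGHV10-1 was found in 3.60% of WT and 4.88% of KO clones with IGLV2, against 0.553 and 0.564% of kappa clones. After IGHV1-55, the gene most common with IGLV3 was IGHV1-9 with 5 clones. IGHV1-64, IGHV1-26, IGHV1-72, IGHV1-81, IGHV1-82, IGHV6-3, IGHV8-8 and IGHV9-3 followed with 3 each. IGHV1-72, known from lambda responses to nitrophenyl haptens, was carried by 7 IGLV2 and 3 IGLV3 cells. In all, IGLV2 was found with 45 heavy V genes in WT and 34 in KO, and IGLV3 with 25 and 16.

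The heavy J genes of WT cells differed between the lambda genes in cells more than in clones. IGHJ3 was used by 25.7% of WT cells with IGLV2 and 53.7% of those with IGLV3, and IGHJ4 by 35.4 and 8.51%. Among WT clones the values were 26.1 and 22.2% for IGHJ3 and 28.8 and 26.7% for IGHJ4. In KO cells IGHJ3 was used by 17.8 and 16.1% and IGHJ4 by 37.0 and 22.6%. IGHJ3 and IGHJ4 were not tested. IGHJ2 was used by 22.9% of IGLV2 and 33.1% of IGLV3 cells as a mean over libraries, with IGLV2 lower in 6 of 8 libraries (exact sign-flip permutation p = 0.172). Against kappa cells, at 30.2%, the IGHJ2 share of IGLV2 cells differed by -7.37 points, lower in 7 of 8 libraries (exact sign-flip permutation p = 0.0156, adjusted p = 0.0260 over the 10 comparisons with kappa). This call was lost with each clone of a genotype counted once, at -5.02 points (same exact test, adjusted p = 0.176), and without any 1 of the 4 WT libraries or KO library 3 (0.0521). The mean heavy CDR3 had 13.7 codons with IGLV2 and 13.9 with IGLV3, and the order changed between libraries (exact sign-flip permutation p = 0.609).

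In IGLV2 cells the mean heavy CDR3 was 13.25, 13.3, 12.9 and 13.5 codons in the WT libraries and 13.7, 14.1, 13.5 and 15.2 codons in the KO libraries. The groups did not overlap, with a difference of 0.877 codons and an exact permutation p of 0.0286, the smallest that 4 against 4 libraries allow. The adjusted p over the 14 comparisons of the genotypes was 0.400. A single comparison could not fall under 0.05 after this adjustment, so the adjusted value does not decide. The longer heavy CDR3 in KO was not particular to IGLV2. IGLV1 cells lay at 12.9 to 13.4 codons in the WT libraries and 13.6 to 13.8 in the KO libraries. Kappa cells lay at 14.35 to 14.41 and 14.44 to 14.52 codons. The groups did not overlap for these either, and IGLV1 also lay below kappa in every library. A heavy CDR3 of 12 codons was found in 55.3% of WT cells with IGLV3 and in 22.2% of their clones, against 11.5% of kappa cells and 10.2% of kappa clones in WT. The heavy CDR3 of IGLV2 cells differed from that of kappa cells by -0.756 codons, shorter in 7 of 8 libraries (exact sign-flip permutation p = 0.0234, adjusted p = 0.0293), a call also lost with each clone of a genotype counted once (-0.554 codons, adjusted p = 0.176) and without any 1 of the 4 WT libraries or KO library 1 or 3 (0.0586).

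Nearly all IGLV2 and IGLV3 cells were IgM. Class-switched cells are those with an IgG, IgA or IgE constant gene. With IGLV2 they numbered 4 of 174 WT cells (2.30%, exact 95% interval 0.630 to 5.78%) and 2 of 146 KO cells (1.37%, 0.166 to 4.86%). With IGLV3 they numbered 1 of 187 WT cells (0.535%, 0.0135 to 2.94%) and 0 of 31 KO cells (0 to 11.2%). The 4 WT cells with IGLV2 were IgG1, 3 from the mutated IGHV14-3 clone and 1 with IGHV9-3. The KO cells were 1 IgG1 cell with IGHV1-15 and 1 IgG3 cell with IGHV1-4, and the WT cell with IGLV3 was IgG1 with IGHV1-81. The 3 IGHV14-3 cells carried 3.67 heavy V mutations on average, the KO cells 4 each and the others 2 each. The intervals treat cells as independent and cover counting error only, while the 4 WT cells with IGLV2 came from 2 clones. IgD was listed for 2 WT cells with IGLV2.

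Switched kappa cells made up 7.71% in WT and 6.66% in KO. The switched share of IGLV2 cells differed from that of kappa cells by -5.26 points and that of IGLV3 cells by -6.95 points, each lower in 8 of 8 libraries (exact sign-flip permutation p = 0.00781, adjusted p = 0.0156 for both). Both differences kept their call under each alternative run. For IGLV3, however, every KO library stood at 0 on only 6 to 11 cells. The exact interval of 0 of 31 KO cells reached 11.2%, above the kappa share of 6.66%. The KO libraries thus could not show a lower IGLV3 share by themselves, although they count towards the 8 of 8 and the p. Between IGLV2 and IGLV3 the difference of 1.69 points was not called (exact sign-flip permutation p = 0.250), at a depth where 1 cell decides the share of a library. IGLV1 cells, with 3.94% switched in WT and 9.53% in KO, are given for comparison.

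Most cells of both genes had an unmutated heavy V segment. The share with no heavy V mutation among IGLV2 cells was 72.1, 90.0, 71.8 and 84.1% in the WT libraries and 91.7, 90.0, 90.6 and 86.5% in the KO libraries. Among IGLV3 cells it was 95.9, 92.7, 95.7 and 86.8% in the WT libraries and 81.8, 100, 100 and 85.7% in the KO libraries, the latter on 6 to 11 cells each. Among kappa cells it lay at 63.2 to 65.7% in WT and 77.3 to 79.1% in KO, below IGLV2 and IGLV3 in every library. IGLV1 cells, given for comparison, had library means of 72.9% in WT and 77.5% in KO. The kappa means were 64.7 and 78.1%, so in WT IGLV1 also lay above kappa. The mean difference from kappa was 13.2 points for IGLV2 and 21.0 points for IGLV3, each in 8 of 8 libraries (exact sign-flip permutation p = 0.00781, adjusted p = 0.0156 for both). The difference of IGLV2 from IGLV3 was -7.74 points, lower in 6 of 8 libraries, and was not called (exact sign-flip permutation p = 0.102, adjusted p = 0.301).

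**Figure D4:**
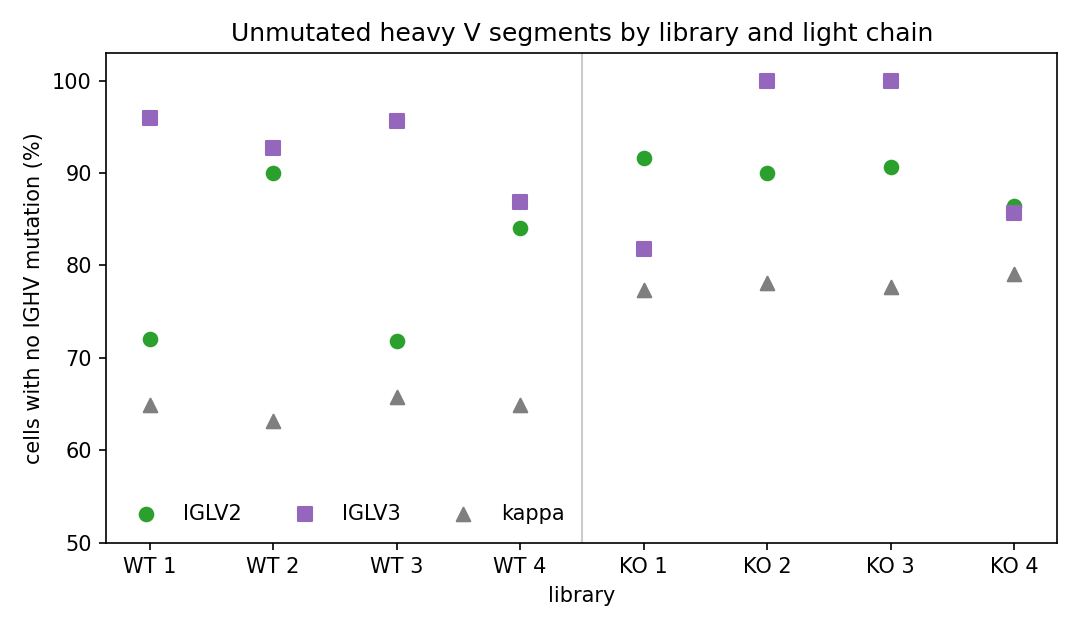
Cells with no heavy V mutation as a percent of the cells with a known heavy germline, by library, for IGLV2, IGLV3 and kappa cells; the axis starts at 50%. Kappa cells lie lowest in each library, at 63.2 to 65.7% in WT and 77.3 to 79.1% in KO.

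As a frequency over all V bases from framework 1 to framework 3, heavy V mutation was 0.27% in WT and 0.109% in KO cells with IGLV2, 0.0881 and 0.118% in those with IGLV3 and 0.442 and 0.224% in kappa cells (means of 4 libraries). In IGLV1 cells it was 0.311% in WT and 0.212% in KO. IGLV2 cells differed from kappa cells by -0.143 points, lower in 8 of 8 libraries (exact sign-flip permutation p = 0.00781, adjusted p = 0.0156). IGLV3 cells differed by -0.230 points, lower in 7 of 8 libraries (exact sign-flip permutation p = 0.0234, adjusted p = 0.0293), a call lost with each clone of a genotype counted once (-0.236 points, adjusted p = 0.0781) and without any 1 of the 4 WT libraries or KO library 2 or 3 (0.0521 to 0.0586). KO cells with IGLV2 differed from WT cells with IGLV2 by -0.161 points, and the groups overlapped (exact permutation p = 0.0571, adjusted p = 0.400). For IGLV3 the genotypes differed by 0.0304 points (exact permutation p = 0.771).

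The lambda V segments carried still fewer mutations. They were found in 10 of 175 WT and 3 of 146 KO cells with IGLV2 and in 7 of 188 WT and 2 of 31 KO cells with IGLV3. Each gene had 18 substitutions when each was counted once per clone. Of those in IGLV2, 11 (61.1%) lay in CDR1 or CDR2, which make up 23.6% of the bases, and of those in IGLV3 7 (38.9%) lay there, against 25.3% of the bases. The substitutions carried by 2 clones were C99T in IGLV2 and G9A and G135A in IGLV3, with the unmutated base first and positions counted as in the V segments above.

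Heavy chains similar to those of the other genotype were found for both genes, with the same light V gene only for IGLV2. A heavy chain with the same V and J, CDR3 length and a junction identity of at least 0.85, whatever its light chain, existed in the other pool for 23 of 111 WT clones (20.7%) and 22 of 82 KO clones (26.8%) with IGLV2, and for 6 of 45 WT clones (13.3%) and 4 of 25 KO clones (16%) with IGLV3. Among kappa clones it existed for 22.0% in WT and 16.6% in KO. A clone that also shared the light V gene existed for 12 of 111 WT clones (10.8%) and 9 of 82 KO clones (11.0%) with IGLV2. With IGLV3 there were 0 of 45 in WT and 0 of 25 in KO. The nominal limits of 3 clones are 6.67% and 12%, and they are not upper bounds. A share like that of IGLV2 could not be told apart from 0 in KO. A match also needs clones of that gene in the other pool. WT clones with IGLV3 had 25 KO clones to match, against 82 for IGLV2. The genes were therefore not compared on equal terms. The share that also shared the light V gene was 9.78% for WT and 7.38% for KO kappa clones. The IGHV1-78 and IGHJ1 junction of the second WT IGHV1-78 line above was identical in 3 WT and 7 KO cells with IGLV2, and it was the only junction found with IGLV2 in both genotypes. A heavy junction also found with another light V gene in the same pool was carried by 17 of 175 WT and 11 of 146 KO cells with IGLV2 and by 23 of 188 WT and 9 of 31 KO cells with IGLV3. These came from 6 WT and 4 KO clones with IGLV2 and from 3 WT and 5 KO clones with IGLV3. Among kappa cells the share was 8.55% in WT and 6.02% in KO, and the differences were not tested.

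Over the 8 libraries the light V genes whose shares were most like those of IGLV3 were IGKV1-117 (Pearson r = 0.978), IGKV3-4 (0.977) and IGKV14-100 (0.972), and for IGLV2 they were IGKV2-137 (0.955), IGKV1-110 (0.942) and IGKV6-23 (0.940). These points fall into the WT and KO libraries, so the values describe genes lower in KO, and no test was made.

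Cells with signs of other B cells were counted in these groups. Cells that were unmutated, IgM and alone in their clone, as naive cells in the sort would be, made up 42.3% of WT and 34.9% of KO cells with IGLV2, 14.9% of WT and 58.1% of KO cells with IGLV3, and 13.9% of WT and 21.9% of KO kappa cells. Such a share falls as more cells lie in clones of at least 2 cells, which held 80.3% of WT and 32.3% of KO cells with IGLV3. In counts these IGLV3 cells were 28 in WT and 18 in KO. They were set against 45 and 25 IGLV3 clones, and 18707 and 21896 paired cells. Heavy V genes of B-1 cells (IGHV11-2, IGHV12-3 and IGHV7-1) were found in 0 of the 540 cells. They were also rare among kappa cells, with 112 of 17582 in WT and 327 of 21224 in KO. Of the 540 cells, 1 exceeded 10 times the median heavy-chain UMIs of its library, a mark of plasmablasts. The median light-chain UMIs per cell were 46 in WT and 37 in KO for IGLV3, 55 and 79.5 for IGLV2 and 65 and 76 for kappa. The part of naive cells and of RNA content in the differences above was not tested.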

How the data were processed

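Splenic germinal-centre B cells of 4 WT and 4 KO libraries were profiled by single-cell receptor sequencing, grouped by the labelled genotype. The deposited tables list 1 assembled contig per line with its V, J and C genes, region sequences and counts of reads and UMIs, made by the authors with Cell Ranger (version not given in the sources used here), R 4.3.1 and mm10, per the submitters' processing notes. All 104649 contigs were flagged as cells of high confidence.

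Cells with exactly 1 heavy and 1 light contig were kept, which leaves out possible doublets. No doublet caller was run. The depth was 4585 to 5712 paired cells per library, so that 3 cells, the limit used for a count of 0, stand for 0.0525 to 0.0654% of a library. Mutations were counted against the most common V sequence of genes with at least 20 clones (77 of 97 IGHV genes), so a base that most clones share is never counted. Cells per gene entered the quasi-likelihood test of edgeR 4.0.16, run in R 4.3.3 (light V genes against paired cells, heavy V partners with the library as a block), with Benjamini-Hochberg adjustment at 0.05. Shares and means per library were tested by exact two-sided permutation, over 70 assignments between genotypes or 256 sign flips within libraries, with adjustment within each family. DESeq2 1.42.0 was an alternative. Other tools were Python 3.11.15, pandas 2.3.3, SciPy 1.17.1, Biopython 1.88 and matplotlib 3.10.9. The scripts were tested on simulated data.

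The genes named are IGLV1 to IGLV3, the 6 heavy V genes with most clones with each of the compared genes, the called heavy V genes, the J and C genes, the 5 largest clones of at least 5 cells, the 3 light V genes most alike over the libraries and the lambda junctions with most clones. IGHV1-15, the heavy V gene of 1 switched cell, and IGHV1-82 and IGHV6-3, tied with named genes, were named after their values were seen. The members and lists were chosen with earlier results of these data known. The replicate numbers did not pair the libraries (correlations of same-numbered deviations -0.22 to 0.041). An edgeR comparison of heavy V partners with kappa cells was tried and is not reported, because its filter on lambda cells fixes the direction. Kappa shares of heavy V genes are descriptions.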

Additional observations from a re-analysis of the deposited data

Results flagged for a closer look

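Of 29 groups of 4 libraries examined for a value far from the others, 2 were flagged, where about 1 in 20 would be for normally spread values. The number flagged is thus near that rate. The class-switched share of IGLV2 cells was 6.06% in KO library 3 and 0 in the other 3 KO libraries. The class-switched share of IGLV3 cells was 1.85% in WT library 2 and 0 in the other 3 WT libraries. These shares rest on 2 cells and 1 cell. Where only 1 library of a group is above 0 the rule always flags it, so neither flag marks an unusual library.

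The genotypes differed in the balance of the genes. The IGLV3 share of IGLV2 and IGLV3 cells was lower in KO, at -34.1 points, with an exact permutation p of 0.0286, the smallest possible. It was not called with clones counted once.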

How the results depend on the processing

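Of 51 results, 29 kept their direction and their side of the threshold under every alternative run, 583 in all. Some could not have changed side. The IGLJ2 share of IGLV3 cells was 100% in every library, and a single measure could not pass the adjustment between genotypes or between genes. The lower use of both genes in KO was called under each, with log2 values from -0.88 to -0.42 for IGLV2 and from -3.05 to -1.27 for IGLV3. The replicate numbers shared by the genotypes do not pair the libraries, and with the replicate block the values were -0.49 and -2.81, with 51 light V genes called.

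Light V calls numbered 33 of 72 with DESeq2, 33 of 66 with each clone counted once per library and 25 of 62 with each clone of a genotype counted once, in place of 52 of 72. Heavy V partner calls numbered 4 of 12 and 1 of 6 with clones counted these ways, 9 of 9 within WT libraries, in place of 7 of 15, and 4 to 8 with 1 library left out. The largest clone fell to 8 cells for IGLV2 in KO and to 42 for IGLV3 in WT at an identity of 0.95 and with identical junctions.

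With each clone counted once per library, the KO against WT difference was -0.108 points for heavy V mutation, 10.1 points for unmutated cells and -0.000869 points for lambda V mutation in IGLV3 cells, and -10.8 points for the IGLV3 share of both genes. With each clone of a genotype counted once it was -0.138 and 12.8 points for the first pair in IGLV3 cells, 5.89 points for IGHJ2 in IGLV3 cells, 0.595 points for the switched share and -6.73 points for IGHJ2 in IGLV2 cells, and -5.45 points for the IGLV3 share. In that setting IGLV2 against IGLV3 heavy V mutation was -0.0182 points, and the calls against kappa were lost for IGLV3 heavy V mutation (-0.236 points), IGLV2 heavy CDR3 length (-0.554 codons) and IGLV2 IGHJ2 (-5.02 points). With at least 5 UMIs, lambda V mutation was 0.000726 points for IGLV2 against IGLV3 and -0.0121 points for KO against WT in IGLV3 cells, and IGHJ2 of IGLV3 against kappa was -0.340 points. Without the largest IGLV3 clone, a setting chosen after seeing the data, KO against WT in IGLV3 cells was -0.0199 points for heavy V mutation and 2.78 points for unmutated cells. Apart from the counts of cells and clones, the cause of these changes was not tested.

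With 1 library left out, KO against WT ranged from -2.33 to 0.740 points for the switched share of IGLV2 cells and, in IGLV3 cells, from -0.0136 to 0.0699 points for heavy V mutation, -3.61 to 2.45 points for unmutated cells, -0.00928 to 0.0430 points for lambda V mutation and -10.9 to 8.13 points for IGHJ2. IGLV2 against IGLV3 heavy CDR3 length ranged from -0.548 to 0.114 codons. Against kappa, the ranges were -0.971 to -0.646 codons for IGLV2 heavy CDR3 length, -8.88 to -6.42 points for IGLV2 IGHJ2, -0.579 to 7.55 points for IGLV3 IGHJ2 and -0.270 to -0.205 points for IGLV3 heavy V mutation. KO libraries held 6 to 11 IGLV3 cells, which limits every KO value of IGLV3. Lambda germline sequences of a reference genome were not used here, and the heavy V fit within KO libraries gave no count of calls over its 4 genes.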

Other observations

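Contigs of both genes were also found outside paired cells, at levels closer between the genotypes than in paired cells. IGLV3 contigs outside paired cells numbered 28 in WT (0.113% of barcodes) and 24 in KO (0.0854%), and IGLV2 contigs 74 in WT (0.297%) and 76 in KO (0.27%). Of all IGLV3 contigs, 87.0% in WT and 56.4% in KO lay in paired cells, and of all IGLV2 contigs 70.3 and 65.8%. The difference between paired and other barcodes was not tested.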
